A study of Homo sapiens with 7 samples.

Results

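Zinc finger genes of human chromosome 19 were followed in embryonic stem cells in which a histone demethylase was induced. The genes were taken by name and position: every entry on chromosome 19 whose symbol is ZNF followed by a number and at most 1 further letter. This gave 251 entries with 246 distinct names, out of 20187 entries on chromosomes and 22670 in all. RNA-seq libraries from SEES-3 human embryonic stem cells (hESCs), an established line grown without feeder cells, provided the levels. In the JMJD3c line, a stable clone, doxycycline (Dox, 1 µg/ml) switches on the catalytic domain of the H3K27 demethylase JMJD3, encoded by KDM6B, through a reverse Tet-transactivator carried by the same cells. This line was sampled before Dox (Day 0) and after 1, 2, 3 and 4 days of Dox. In the second line, JMJD3c mut, the inducible domain carries a point mutation that removes its catalytic activity, and the cells were sampled untreated and after 4 days of the same Dox treatment. Each of the 7 conditions had 1 library, so the differences below could not be checked against replicates and were not tested. The bounds quoted are the 95% intervals of each FPKM (read fragments scaled to transcript length and library size) estimate, which cover the estimate within 1 library and not the variation between cultures.

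Most of these genes encode Krüppel-type zinc finger proteins, in which a tandem array of C2H2 fingers reads DNA and an amino-terminal KRAB domain recruits the corepressor TRIM28 (KAP1). TRIM28 in turn brings the H3K9 methyltransferase SETDB1, heterochromatin proteins and the NuRD complex to the bound site. The family expanded by tandem duplication, which left clusters of related genes along chromosome 19. Many of its proteins bind transposable elements and hold them silent in pluripotent cells.

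Fingers of a few members are given as examples. The first finger of a strict form is given with the linker that follows it. It is shown for the 4 genes with the highest mean levels and for ZNF93 and ZNF91, known repressors of L1 and SVA retrotransposons. In this form 2 residues lie between the cysteines, 12 before the first histidine and 3 between the histidines. A phenylalanine, a leucine and the linker sit at fixed places. Coding bases run 5′ to 3′ on the gene's own strand in hg19, as read with the GENCODE annotation, and the codons of the zinc-binding cysteines and histidines are in capitals.
ZNF146, chr19:36727562-36727639, plus strand: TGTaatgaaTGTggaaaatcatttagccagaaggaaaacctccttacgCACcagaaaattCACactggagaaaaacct
ZNF649, chr19:52394690-52394767, minus strand: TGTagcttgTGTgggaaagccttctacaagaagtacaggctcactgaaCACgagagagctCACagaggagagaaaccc
ZNF121, chr19:9677276-9677353, minus strand: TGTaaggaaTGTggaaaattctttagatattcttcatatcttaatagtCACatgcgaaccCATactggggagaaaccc
ZNF208, chr19:22156984-22157061, minus strand: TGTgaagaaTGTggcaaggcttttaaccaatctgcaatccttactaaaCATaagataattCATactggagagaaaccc
ZNF93, chr19:20044287-20044364, plus strand: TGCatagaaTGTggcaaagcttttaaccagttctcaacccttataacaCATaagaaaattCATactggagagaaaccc
ZNF91, chr19:23544902-23544979, minus strand: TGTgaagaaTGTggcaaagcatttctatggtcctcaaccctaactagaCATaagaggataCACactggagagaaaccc
Among the 15 pairs, 42 to 65 of the 78 bases were identical. The strict form fixes part of each finger and the genes were chosen, so these counts do not measure how alike the members are. The closest pair was ZNF208 and ZNF93 (65 bases), from the same cluster, and ZNF208 and ZNF91 shared 61. Such a finger was found in 223 members. Between close relatives a read can map to more than 1 gene: 24 members had at least 20% of their 150-base windows in common with another gene, and 170 had none in common. In addition, 79 members overlapped another entry on the chromosome, and the reads of such pairs may not have been separated, because the use of strand in counting is not stated.

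The libraries matched their labels. KDM6B rose from 3.45 to 282 FPKM between Day 0 and Day 4, and was at 2.40 FPKM in the untreated and 454 FPKM in the Dox-treated mutant line. All 7 hESC markers were present in every library, POU5F1 between 619 and 841 FPKM, and all 8 mesoendoderm markers were called higher at Day 4, their summed level going from 5.49 to 309.8 FPKM, while that of the hESC markers went from 2295 to 1618 FPKM. The hESC markers were also lower with Dox in the mutant line, all 7 of them, with a summed level of 2138 FPKM untreated and 1854 FPKM treated. Of 6 neural markers, PAX6 (intervals overlapping) and OTX2 were called higher at Day 4, OTX2 going from 18.9 to 47.7 FPKM. NES also rose, from 106 to 162 FPKM, and TUBB3 fell from 222 to 169 FPKM, both with intervals apart. SOX1 was at most 1.03 FPKM and NEUROD1 at most 0.117 FPKM. With Dox in the mutant line, OTX2 was called lower (15.2 to 7.50 FPKM). The part of these marker changes in the members' values was not tested, and in bulk RNA fewer cells with a transcript and less of it per cell cannot be told apart. Fibroblast markers were mixed: DCN was listed at 0 throughout and POSTN was at most 0.572 FPKM. COL1A1 lay between 4.18 and 11.3 FPKM, COL1A2 between 12.5 and 28.4 FPKM and THY1 between 76.1 and 130 FPKM. None was called at Day 4 against Day 0. COL1A1 was called lower in the untreated mutant line than at Day 0. The COL1A2 interval at Day 4 (23.2 FPKM) lay above those of both mutant-line libraries. The files give no read counts. The commonest ratio of low FPKM values between libraries, which reflects what 1 read was worth, put the depth at 1.499, 1.81, 1.93 and 1.37 times that of Day 0 for Days 1 to 4, and at 2.06 and 1.80 times in the mutant line without and with Dox. The Day 0 library, to which the Dox days are compared, was therefore the shallowest library, and its member intervals were the widest, with a median half-width of 69.7% of the value for members between 4 and 10 FPKM, against 53.1% at Day 4 and 43.5% in the untreated mutant line.

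The zinc finger genes of chromosome 19 were almost all transcribed in hESCs, at low levels. Of the 251 members, 245 were above 0 in at least 1 library and 234 in all 7. The mean over the libraries exceeded 1 FPKM in 229 members (91.2%), against 61.3% of all genes on chromosomes. High levels were scarce: 9 members (3.59%) had a mean above 20 FPKM, against 20.3% of all genes. The median of the means was 4.50 FPKM, with the middle 50% of members between 2.46 and 7.79 FPKM. The 261 zinc finger genes on other chromosomes had a median of 5.39 FPKM, and 83.9% of them exceeded 1 FPKM and 7.28% exceeded 20 FPKM.

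The 8 members with the highest means were ZNF146 (54.2 FPKM), ZNF649 (30.6), ZNF121 (28.5), ZNF208 (26.7), ZNF581 (24.6), ZNF787 (24.0), ZNF444 (22.6) and ZNF738 (21.5). ZNF146, also called OZF, consists almost wholly of zinc fingers and has no KRAB domain. It was at 47.9, 48.7, 48.5, 46.9 and 52.8 FPKM from Day 0 to Day 4, and at 68.6 and 66.0 FPKM in the mutant line without and with Dox. The JMJD3c libraries thus lay in a narrow range, and both mutant-line libraries lay above them. ZNF146 overlaps 1 other entry. ZNF649, a KRAB repressor, was at 35.8, 26.8, 29.5, 25 and 24.8 FPKM over the time course and at 37.5 and 34.9 FPKM in the mutant line, and the intervals of Day 4 and the untreated mutant line were apart. ZNF121 ranged from 22.7 FPKM at Day 3 to 32.4 FPKM in the untreated mutant line, with no trend over the days. ZNF738 ranged from 17.3 to 25.3 FPKM, the lowest and the highest value both in the mutant line.

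**Figure D1:**
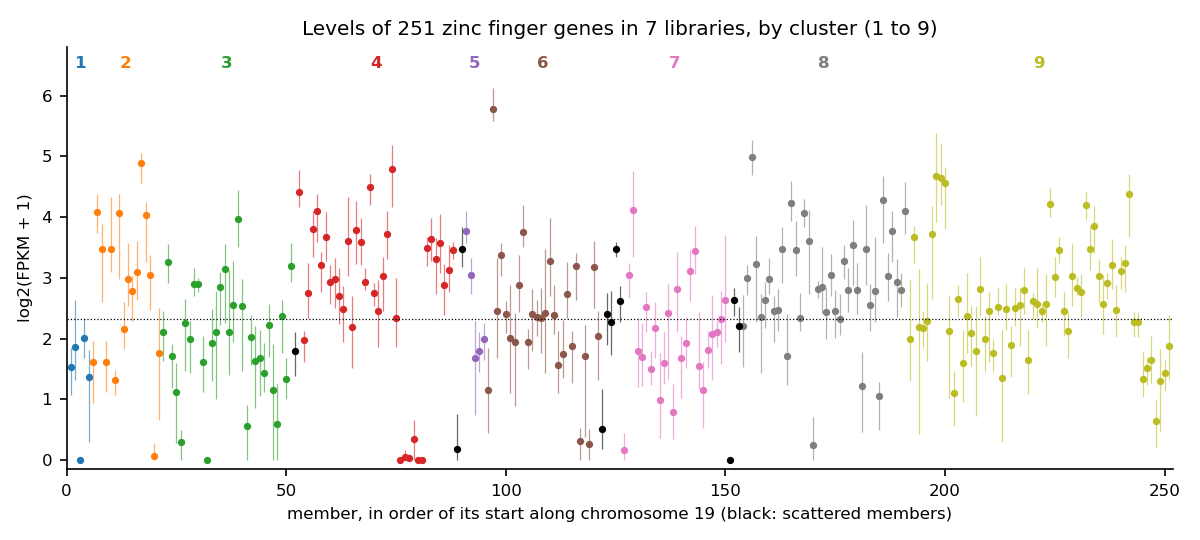
Level of each of the 251 members as log2(FPKM + 1), in order along chromosome 19. Points are means over the 7 libraries, vertical lines run from the lowest to the highest library, colours and numbers give the 9 clusters, and the dotted line is at 4 FPKM. The middle 50% of the points lie between 2.46 and 7.79 FPKM, and 6 neighbours in cluster 4 lie at or near 0.

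Members were grouped into a cluster when no gap between them exceeded 1 Mb. This gave 9 clusters of 5 or more members, with 240 members in all, and 11 scattered members in 7 places. In the order of the chromosome (hg19), the clusters were cluster 1 at 2.8 to 2.9 Mb (ZNF554 to ZNF77, 5 members), cluster 2 at 7.1 to 9.9 Mb (ZNF557 to ZNF846, 16), cluster 3 at 11.6 to 12.7 Mb (ZNF653 to ZNF791, 30), cluster 4 at 19.8 to 24.3 Mb (ZNF101 to ZNF254, 36), cluster 5 at 35.2 to 35.5 Mb (ZNF302 to ZNF792, 5), cluster 6 at 36.7 to 38.3 Mb (ZNF565 to ZNF573, 26), cluster 7 at 44 to 45.6 Mb (ZNF575 to ZNF296, 24), cluster 8 at 52.1 to 54.1 Mb (ZNF175 to ZNF331, 38) and cluster 9 at 56.0 to 59.0 Mb (ZNF628 to ZNF446, 60).

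Levels differed between the clusters. In cluster 8, 33 of 38 members (86.8%) had a mean above 4 FPKM, with a median of 6.16 FPKM. In cluster 4 this held for 28 of 36 members (77.8%; median 7.03 FPKM) and in cluster 2 for 10 of 16 (62.5%; median 7.05 FPKM). Clusters 3 and 7 were lower, with 10 of 30 (33.3%; median 3.18 FPKM) and 9 of 24 members (37.5%; median 3.01 FPKM), and no member of cluster 1 reached a mean of 4 FPKM. Every cluster held a wide range: in cluster 6 the means ran from 0.196 FPKM (ZNF781) to 54.2 FPKM (ZNF146). No test was made between clusters, since neighbouring genes share sequence and the libraries are the same.

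Cluster 4 contained a silent stretch. A run of 6 consecutive members, ZNF676, ZNF729, ZNF98, ZNF492, ZNF99 and ZNF728, spanning 824 kb (chr19:22361893-23185978), had means below 0.5 FPKM, and the stretch was noticed after the values were seen. ZNF676, ZNF99 and ZNF728 were listed at 0 in all 7 libraries. ZNF729, which encodes 34 fingers, was at 0.121 FPKM at Day 4 and 0.0803 FPKM in the untreated mutant line and at 0 in the others. ZNF492 had the highest value of the stretch, 0.576 FPKM at Day 2. The other 30 members of the cluster all had means of at least 2.95 FPKM, with a median of 8.57 FPKM, so that the stretch held every low member of its cluster. ZNF208, 1 of the 8 highest members, starts at 22115760, and ZNF257 (mean 4.06 FPKM) lies between ZNF208 and the stretch. The remaining members with a mean below 0.5 FPKM, 12 of 18, were spread over 6 other clusters and the scattered places, among them ZNF534, a repressor of HERVH elements, which was at most 0.638 FPKM, and ZNF536, a brain-expressed gene, which was at most 0.685 FPKM.

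Few members passed the cutoffs on each single day after induction of JMJD3c. A call needed a change of more than 2-fold, together with over 4 FPKM in whichever library was higher: the treated one for upregulated genes, the untreated one for downregulated genes. Log2 fold changes were calculated after adding 1 to each FPKM. At Day 1, 11 members were upregulated and 5 downregulated (background over all genes 1.76% up and 1.65% down). The counts were 12 and 7 at Day 2 (background 1.97% and 2.14%), 12 and 9 at Day 3 (2.4% and 2.28%), and 9 and 9 at Day 4 (2.98% and 3.84%). As shares of the members, 4.38%, 4.78%, 4.78% and 3.59% were called up and 1.99%, 2.79%, 3.59% and 3.59% down on Days 1 to 4. Genes near 0 in both libraries cannot be called, so the 5641 genes with a mean between 1 and 10 FPKM are the closer background. Of these, 7.48% were called up and 9.27% down at Day 4, and of the 181 members in that band 3.31% and 4.42%. For up calls, band members stood at 6.08%, 6.08% and 5.52% on Days 1 to 3, and band genes at 4.98%, 5.18% and 6.31%. For down calls, band members stood at 2.76%, 3.87% and 4.97%, and band genes at 4.36%, 5.90% and 5.85%. On at least 1 Dox day, 27 members (10.8%) were called up and 15 (5.98%) down, against 5.35% of all genes each way. That background includes the genes near 0, and the share in the band was not calculated. All Dox days were compared to the same Day 0 library.

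**Figure D2:**
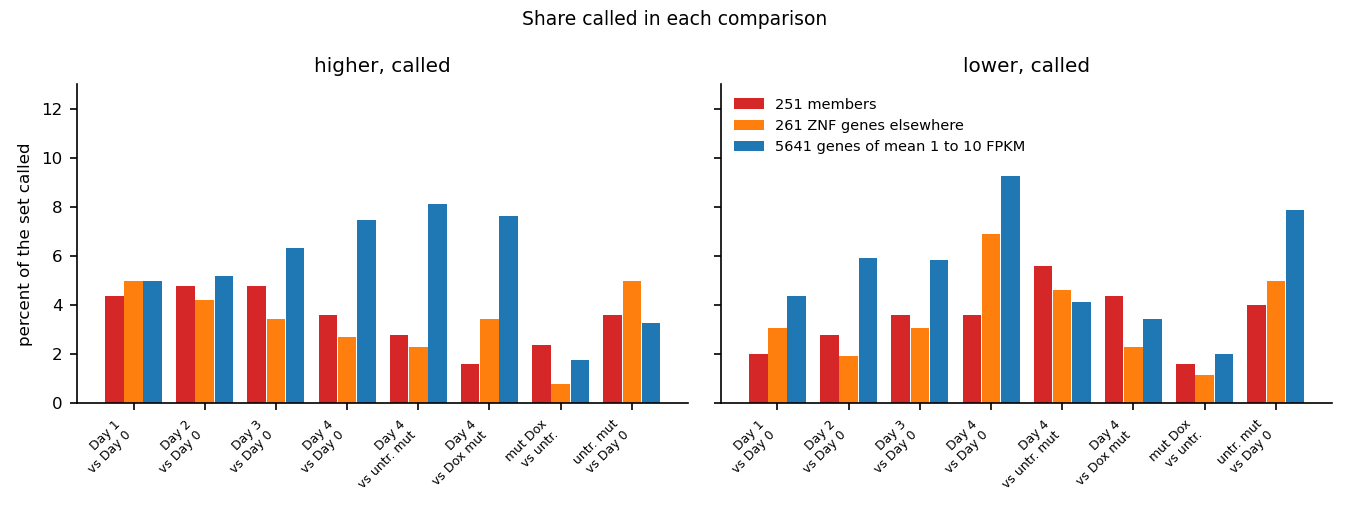
Percent of each set called higher (left) and lower (right) in 8 comparisons, for the 251 members, the 261 zinc finger genes on other chromosomes and the 5641 genes with a mean of 1 to 10 FPKM. At Day 4 against Day 0 the member bars stand at 3.59% in both directions and those of the genes of like level at 7.48% and 9.27%.

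The medians over the members stayed near 0. The median log2 fold changes against Day 0 were 0.08, 0.10, 0.03 and 0.06 on Days 1, 2, 3 and 4, and on the last day 135 members were higher, 107 lower and 9 equal. In the band of 1 to 10 FPKM the medians over all genes were 0.05, 0.04, 0.04 and -0.02. At Day 4, 165 members (65.7%) lay within 0.5 of 0 on the log2 scale, against 55.4% of genes in the band. Intervals were apart between Day 4 and Day 0 for 4 members (1.59%), all of them lower at Day 4, against 6.94% of all genes.

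The 9 members upregulated at Day 4 were ZNF559, ZNF625, ZNF382, ZNF568, ZNF607, ZNF223, ZNF180, ZNF350 and ZNF544, with ratios from 2.02 (ZNF625) to 5.60 (ZNF382). For each of them the Day 4 interval overlapped that of Day 0. Each was also at its lowest level in the Day 0 library, below all 6 others, the untreated mutant line included; this was so for 54.8% of all genes upregulated at Day 4. ZNF559 was at 6.87 FPKM at Day 0, and values of 13.5, 17, 19.9 and 18.2 FPKM followed on Days 1 to 4, but it was at 17.4 FPKM in the untreated and 17 FPKM in the Dox-treated mutant line. ZNF544 behaved in the same manner, with 11.8 FPKM at Day 0, 18.4 to 25 FPKM on the Dox days and 19.9 and 21.3 FPKM in the mutant line. ZNF350, also called ZBRK1, a partner of BRCA1, was at 1.69 FPKM at Day 0, 5.21, 4.65, 3.13 and 4.92 FPKM on the Dox days, and 5.62 and 3.65 FPKM in the mutant line. When the untreated mutant line took the place of Day 0, only ZNF382 of the 9 was still called; of all 602 upregulated genes, 57.6% were.

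In cluster 6, ZNF382, a KRAB repressor that overlaps 1 other entry, was at 1.14 FPKM at Day 0 (interval 0 to 4.74), 3.59, 4.38 and 2.31 on Days 1 to 3 and 6.40 FPKM on Day 4 (2.72 to 10.1), and at 1.84 and 1.47 FPKM in the mutant line without and with Dox. Day 4 was the highest library, but Day 3 was below both Day 1 and Day 2, and the Day 4 interval overlapped those of all other libraries. The ratios of Day 4 to Day 0, the untreated mutant line and the Dox-treated mutant line were 5.60, 3.48 and 4.35. With the cutoff of 4 FPKM, ZNF382 was the only member called upregulated against all 3 of these libraries, beside 1.38% of all genes. ZNF442 (named after its values were seen) also exceeded all 3 by more than 2-fold, at 1.08 FPKM before Dox, 3.13 FPKM at Day 4, and 1.49 and 1.28 FPKM in the mutant line, but stayed below 4 FPKM. No member was called downregulated against all 3, beside 0.386% of all genes.

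The 9 members downregulated at Day 4 were ZNF555, ZNF440, ZNF20, ZNF136, ZNF573, ZNF296, ZNF808, ZNF347 and ZNF581, with ratios from 0.332 (ZNF296) to 0.496 (ZNF20). In 4 of the 9 (44.4%), Day 0 was above all 6 other libraries, against 74.3% of all genes downregulated at Day 4. ZNF296, which is expressed in pluripotent cells, was at 12 FPKM at Day 0 (7.73 to 16.1), then at 7.30, 3.42, 3.02 and 3.99 FPKM (2.12 to 5.88 at Day 4). It was at 2.83 FPKM in the untreated mutant line (1.56 to 4.06) and at 3.64 FPKM with Dox, so the untreated mutant line was as low as the Dox-treated JMJD3c line. ZNF347 was at 11.7 FPKM at Day 0 and between 3.83 and 6.09 FPKM in the other 6 libraries, and its Day 0 interval ran from 1.91 to 21.8. ZNF347 was the only member called downregulated on every Dox day, and ZNF223, which shares 60.7% of its windows with other genes, the only one called upregulated on every Dox day. Each is 0.398% of the members, near the 0.505% of all genes called downregulated and the 0.347% called upregulated on every Dox day. ZNF808, which binds MER11 elements, was at 10.3 FPKM at Day 0, 6.07, 5.94, 5.30 and 4.35 FPKM on the following days, and 6.26 and 5.42 FPKM in the mutant line.

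Among all members, 2 met the rule for the clearest changes, intervals apart from Day 0 and the same direction against the untreated mutant line, and both were lower at Day 4. ZNF581 in cluster 9 was at 40.7, 24.6, 27, 22.3 and 14.2 FPKM from Day 0 to Day 4 and at 18.3 and 25 FPKM in the mutant line without and with Dox. Day 4 was the lowest library, with a ratio of 0.348 to Day 0 but of 0.776 to the untreated mutant line, whose interval it overlapped. ZNF581 overlaps 2 other entries. ZNF77 in cluster 1, a KRAB gene with 12 fingers, was at 2.5 FPKM at Day 0 (0.842 to 3.93), 1.04, 1.38 and 2.10 FPKM on Days 1 to 3, and 0.228 FPKM at Day 4 (0 to 0.615). It was at 2.42 FPKM in the untreated mutant line (1.36 to 3.54) and at 1.39 FPKM with Dox. Its Day 4 interval was apart from those of both untreated libraries, and its levels were below the 4 FPKM that a call needs. The other members with intervals apart from Day 0 were ZNF296, described above, and ZNF787. ZNF787 was at 36.4 FPKM at Day 0, 19.1 FPKM at Day 4 and 18.3 FPKM in the untreated mutant line, where it was no higher than at Day 4. No member with intervals apart was higher at Day 4 than at Day 0.

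**Figure D3:**
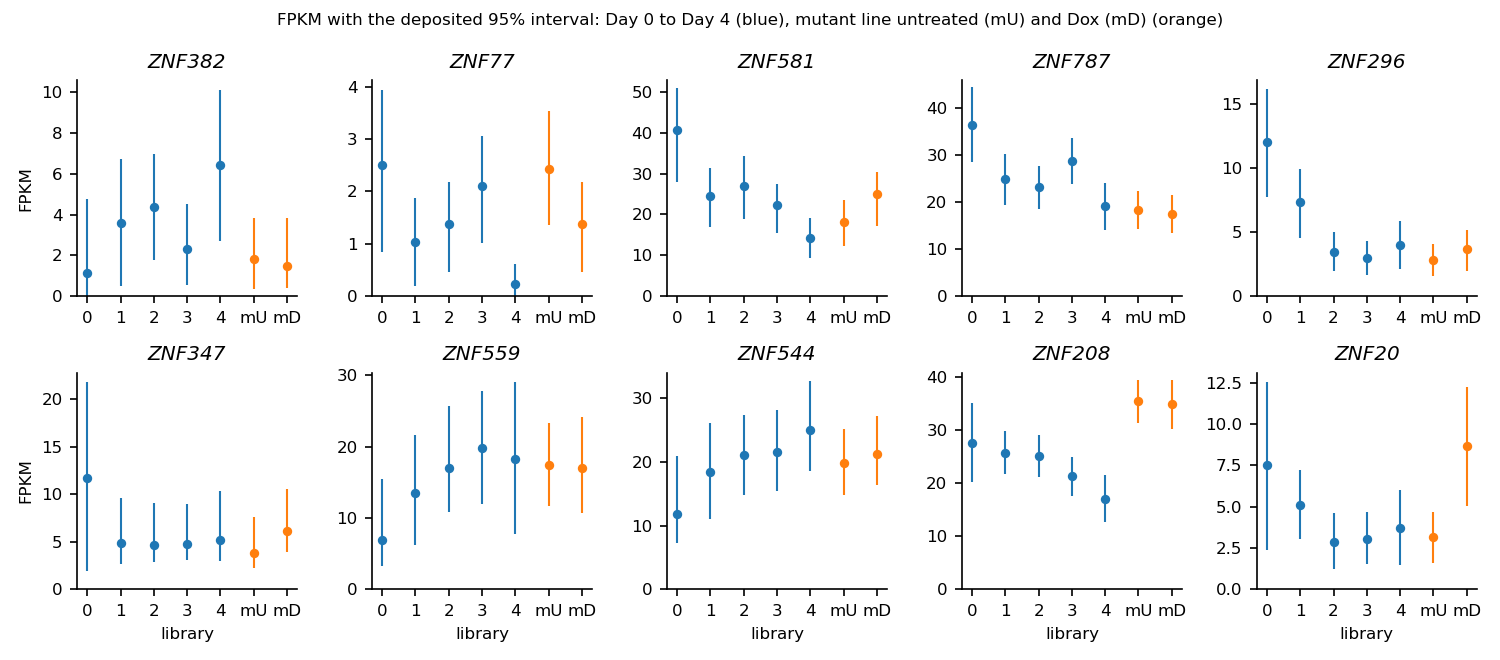
FPKM of 10 members in each library with the deposited 95% interval, on linear axes that start at 0. Blue points are Days 0 to 4 of the JMJD3c line and orange points are the mutant line untreated (mU) and with Dox (mD). ZNF382 is highest at Day 4, and ZNF77 and ZNF581 are lowest there. Day 0 is the highest library for ZNF296 and ZNF347 and the lowest for ZNF559 and ZNF544, the untreated mutant line included. Among these last genes, only ZNF296 has intervals apart between Day 4 and Day 0.

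In the mutant line, Dox was followed by 6 members (2.39%) called upregulated and 4 (1.59%) called downregulated (background 0.604% and 0.738%). In the band of 1 to 10 FPKM, 2.76% and 2.21% of members were called, against 1.77% and 2.02% of all genes. The median log2 fold change was 0.00, with 121 members higher and 121 lower, and 82.5% of members lay within 0.5 of 0. Intervals were apart for 3 entries (1.20%), against 1.78% of all genes. ZNF101 in cluster 4 was at 26.4 FPKM untreated (21.0 to 31.8) and 16.9 FPKM with Dox (12.9 to 20.9), and lay between 18.7 and 21.0 FPKM in the JMJD3c line. ZNF20 was at 3.15 FPKM untreated (1.6 to 4.69) and 8.66 FPKM with Dox (5.05 to 12.2), a ratio of 2.75. In the JMJD3c line ZNF20 was at 7.49, 5.09, 2.82, 3.05 and 3.71 FPKM, a move in the other direction. The third entry was the longer of the 2 named ZNF788, which overlaps ZNF20 on the other strand. The shorter ZNF788 entry was at 3.77 and 8.08 FPKM in the mutant line without and with Dox, and the longer at 7.71 and 3.61 FPKM. The summed level of the 3 entries was between 14.6 and 16.6 FPKM in 6 libraries and 20.4 FPKM in the Dox-treated mutant line, a narrower range than that of any of the 3.

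The 2 untreated libraries differed from each other in about as many members as Day 4 and Day 0. Between the untreated mutant line and Day 0, 9 members (3.59%) were called higher and 10 (3.98%) lower (background 1.38% and 3.49%). Intervals were apart for 8 (3.19%), against 7.34% of all genes. In the band of 1 to 10 FPKM, 3.87% and 3.31% of members were called, against 3.28% and 7.89% of all genes. The median log2 fold change was 0.13, with 146 members higher and 95 lower, while the median in the band of 1 to 10 FPKM was -0.07. Against the untreated mutant line, Day 4 had 7 members (2.79%) called higher and 14 (5.58%) called lower (background 3.51% and 1.94%). In the band the shares called were 2.76% and 6.63% of members and 8.14% and 4.13% of all genes. In this comparison 103 members were higher and 139 lower, with a median of -0.05 where the band had 0.03. Against the Dox-treated mutant line, 4 (1.59%) were called higher and 11 (4.38%) lower (background 3.25% and 1.49%). The median was -0.13 where the band had 0.03, and the shares called in the band were 1.10% and 4.42% of members and 7.64% and 3.44% of all genes. These comparisons share libraries with each other. Day 0 was the library with the lowest value for 65 of 238 members (27.3%), against 17.03% of all genes. Within the band of 1 to 10 FPKM the shares were 26.5% of members and 19.3% of all genes. The line, the clone and the library cannot be told apart in this difference.

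Members with intervals apart between Day 4 and the untreated mutant line numbered 11 (4.38%), of which 8 were lower at Day 4, against 10.2% of all genes, of which 1091 were lower and 964 higher. ZNF208 in cluster 4, with 36 fingers, was at 27.7, 25.7, 25.1, 21.3 and 17 FPKM from Day 0 to Day 4. In the mutant line without and with Dox it was at 35.4 and 34.9 FPKM. Day 4 was thus its lowest library and both mutant-line libraries its highest, but 25.6% of its windows are shared with other genes. ZNF613 (chosen, with ZNF426 and ZNF428, after the values were seen) was at 7.55 FPKM at Day 0, 3.86 FPKM at Day 4 and 11.3 FPKM in the untreated mutant line. ZNF426 was at 6.64, 5.24 and 11.1 FPKM in these libraries. In the other direction, ZNF428, which has 1 finger and no KRAB domain, was at 14.4 FPKM at Day 0, 21.6 FPKM at Day 4 and 9.15 FPKM in the untreated mutant line.

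By position, cluster 4 was the most uniform in direction between the untreated libraries. In the untreated mutant line 28 of its members were higher and 4 lower than at Day 0 (median log2 fold change 0.37), and against that library 6 were higher and 26 lower at Day 4 (median -0.23). Relative to Day 0, 22 were higher and 10 lower at Day 4 (median 0.11), and none was called in either direction. Its best known members showed this order. ZNF91 was at 5.68 FPKM at Day 0, 7.12, 9.06, 10.004 and 8.44 FPKM on the Dox days, and 10.2 and 11.6 FPKM in the mutant line without and with Dox. ZNF93 was at 11.0 FPKM at Day 0, 14.1, 16.2, 15.7 and 17.3 FPKM on the Dox days, and 19.1 and 19.8 FPKM in the mutant line. For both, Day 0 was the lowest library and the mutant line the highest, irrespective of Dox. Cluster 9, the largest, was even: 31 members higher and 29 lower at Day 4 than at Day 0, and 28 and 32 in the untreated mutant line. Median transcript GC content was 46.3% in cluster 9 and 37.2% in cluster 4, the lowest of the clusters, and its part was not tested. Cluster 7 had 15 higher and 8 lower at Day 4 (median 0.30) and 15 and 8 in the untreated mutant line (median 0.41). In cluster 1 the 4 detected members were all lower with Dox in the mutant line (median over its 5 members -0.48), and 2 of them were lower at Day 4.

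**Figure D4:**
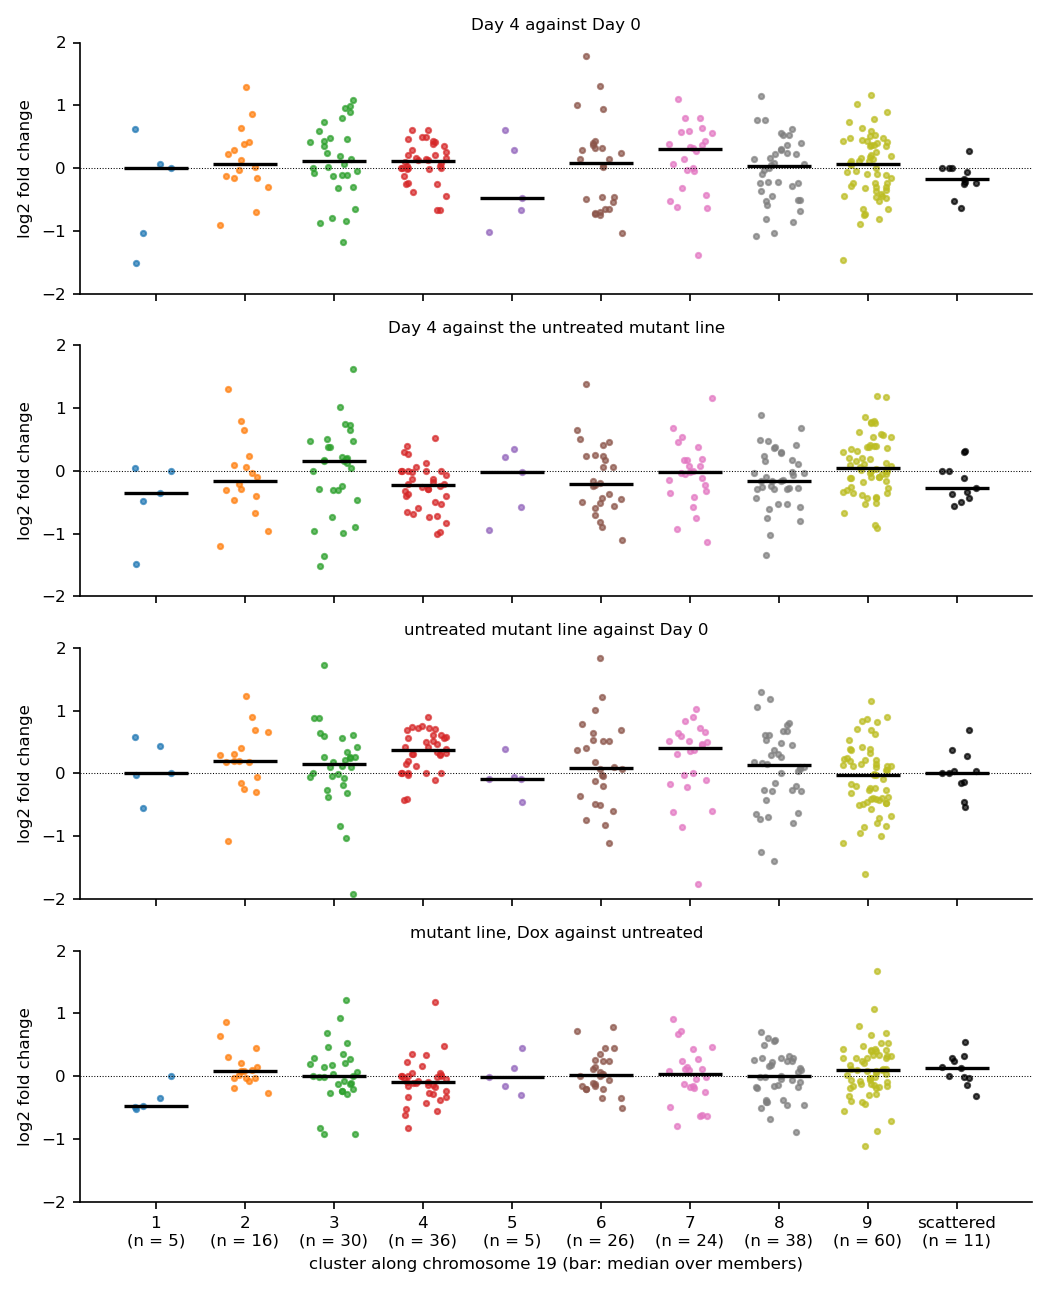
Log2 fold change (pseudocount 1) of each member, by cluster, in 4 comparisons, with horizontal bars at the medians. Points of cluster 4 lie mostly above 0 for the untreated mutant line against Day 0 (28 of 36) and mostly below 0 for Day 4 against the untreated mutant line (26 of 36), while all clusters straddle 0 at Day 4 against Day 0.

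Protein features were read from the coding sequence of 243 members. Fingers were counted here with a looser pattern, which allows 2 to 4 residues between the cysteines and 3 to 5 between the histidines. The median number of C2H2 fingers was 12, with a range of 0 to 36, and 208 members had a match to the KRAB domain. The 35 without it had a higher median level, 7.26 FPKM against 4.50 FPKM, and included 5 of the 9 members above 20 FPKM. The share with a mean above 4 FPKM was alike, 60.0% without KRAB and 60.1% with it. The 35 without KRAB also differed in GC content of the transcript, with a median of 59.6% against 41.9%. At Day 4 against the untreated mutant line, 2 of 208 KRAB members were called higher and 13 lower. Of the 35 without KRAB, 4 and 0 were called. All genes had 3.51% and 1.94%, and those in the band of 1 to 10 FPKM 8.14% and 4.13%. Against the Dox-treated mutant line the counts were 1 and 10 with KRAB and 3 and 1 without. Median log2 fold changes there were -0.13 and -0.14. Relative to Day 0 the counts were 9 and 7 with KRAB and 0 and 2 without (background 2.98% and 3.84%, band 7.48% and 9.27%). The split was not tested. Levels hardly followed the number of fingers, with medians of 5.20 FPKM for 1 to 7 fingers, 4.85 FPKM for 8 to 12, 4.47 FPKM for 13 to 17 and 4.87 FPKM for 18 or more.

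Of the 17 members listed for a described role, 2 were called upregulated at Day 4 (ZNF382 and ZNF350) and 2 downregulated (ZNF296 and ZNF808), and the median log2 fold change was 0.00. ZNF417 and ZNF587, a close pair that binds HERV-K elements, stood at 8.87 and 7.78 FPKM before Dox, and Day 4 gave 8.84 FPKM for ZNF417 and 8.47 FPKM for ZNF587. ZNF274, which brings SETDB1 to the 3′ ends of zinc finger genes, was at 9.10 FPKM at Day 0, 6.25 to 10.6 FPKM on the Dox days and 5.84 and 8.10 FPKM in the mutant line. ZNF331, an imprinted gene, was at 23.0, 18.2, 16.9, 14.0 and 12.2 FPKM from Day 0 to Day 4, lower at each day, but at 12.8 FPKM in the untreated mutant line, close to the Day 4 value. ZNF224, a repressor of aldolase A, was at 3.29 FPKM at Day 0, 6.69 FPKM at Day 1, where it was called upregulated, 6.16, 5.29 and 5.37 FPKM on Days 2 to 4, and 5.52 and 9.74 FPKM in the mutant line. ZNF473, which acts in histone pre-mRNA processing, was at 4.71, 2.42, 3.30, 3.32 and 2.66 FPKM from Day 0 to Day 4 and at 4.15 and 4.62 FPKM in the mutant line. ZNF765 was at 8.93, 4.12, 5.98, 4.49 and 7.14 FPKM over the time course, called downregulated at Day 1 alone, and at 7.27 and 8.73 FPKM in the mutant line.

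A list of 25 genes held the corepressors and heterochromatin factors through which KRAB proteins act, together with ZFP57 and ZNF445, KRAB zinc finger genes of imprint control on other chromosomes. Of these genes 24 were found, and none passed the cutoffs in any of the 8 comparisons. By Day 4, 8 were higher and 16 lower than at Day 0 (median log2 fold change -0.07). TRIM28 was at 364, 320, 280, 320 and 334 FPKM over the time course and at 274 and 301 FPKM in the mutant line. SETDB1 was at 15.1 FPKM at Day 0 and 16.2 FPKM at Day 4. ATF7IP, the nuclear partner of SETDB1, had the lowest ratio, with 43.4 FPKM at Day 0, 22.3 FPKM at Day 4, and 34.0 and 28.8 FPKM in the mutant line. EHMT2 (G9a), at 41.9 FPKM at Day 0 and 27.3 FPKM at Day 4, was the only one with intervals apart between these libraries. It was at 30.6 and 31.5 FPKM in the mutant line without and with Dox. The EHMT2 interval of the untreated mutant line was also apart from that of Day 0, and overlapped that of Day 4.

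The zinc finger genes on other chromosomes were set beside them. Of the 261, 7 were called upregulated and 18 downregulated at Day 4, or 2.68% and 6.90%, against 3.59% and 3.59% of the chromosome 19 members, and their median log2 fold change was 0.00. Against the untreated mutant line, 6 were called higher and 12 lower (2.30% and 4.60%), against 2.79% and 5.58% of the members. In the mutant line 2 and 3 were called.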

How the data were processed

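Total RNA was poly(A)-selected, prepared with a directional kit and sequenced on a MiSeq as 150-base single-end reads. Per the submitters' processing notes, CASAVA 1.4, TopHat2 2.0.13 and Cufflinks 2.1.1 were used with hg19. The authors deposited the FPKM of each gene with lower and upper 95% bounds in FPKM, and no read counts. Groups were taken from the sample labels, 1 library each. From the FPKM, ratios and log2 fold changes (pseudocount 1) were calculated. No test was made. GC content, fingers and KRAB matches came from GENCODE release 44 on GRCh37, the assembly of hg19, for 247 members (98.4%). Starts are 1-based. The finger and KRAB searches matched patterns of residues. The members and lists were chosen with earlier results of these data known. The genes named were the 8 highest means, the largest changes at Day 4 (intervals apart, same direction against the untreated mutant line) and in the mutant line (intervals apart), and 17 genes of described role; other called members were named after their values were seen. Of entries that share a name, the highest was used for named genes. Alternatives changed the cutoff, pseudocount, scaling, GC correction, entries and reference. Python 3.11.15, numpy and pandas were used, and the calculations were tested on simulated data.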

Additional observations from a re-analysis of the deposited data

Results flagged for a closer look

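ZNF20 was the member called in opposite directions in the 2 lines. Its log2 fold change was -0.85 at Day 4 against Day 0 in the JMJD3c line (7.49 to 3.71 FPKM, intervals overlapping) and 1.22 with Dox in the mutant line (3.15 to 8.66 FPKM, intervals apart). The difference was not tested, since each line had 1 library per condition. ZNF20 shares 72.3% of its 150-base windows with other genes and overlaps 3 other entries, and the part of this in the result was not tested.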

How the results depend on the processing

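No paired analysis was possible because each condition had 1 library. Of 44 recalculated values, 30 stayed near the reported one (counts within 1.5 times, medians within 0.13, the median difference between the 2 untreated libraries). The limit for medians was wider than the Day 4 median itself (0.06), so that a change of sign also counted as near. Members called upregulated and downregulated at Day 4 numbered 19 and 17 with a cutoff of 1 FPKM, 27 and 20 with no cutoff, and 0 and 2 when intervals also had to be apart. Downregulated members numbered 14 against the untreated mutant line. In the mutant line, the counts were 12 and 10 with no cutoff and 1 and 1 with intervals apart, and 7 were downregulated at a cutoff of 1 FPKM. In a setting chosen after seeing the data, the 158 members that neither overlap another entry nor share 20% of their windows had 4 upregulated at Day 4 and 3 in the mutant line. The Day 4 median was -0.05 against the untreated mutant line and between 0.01 and 0.11 otherwise. The causes were not tested. The files give no read counts, so depth entered only through the deposited intervals.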
